A study of Mus musculus with 2 samples.

Results

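The Siglec family was described in splenic CD11c+ cells through 6 member genes, Siglec1, Siglech, Siglece, Siglecg, Cd22 and Cd33, of the 27032 genes in the count tables. The members were chosen by symbol, and no value of theirs enters the rule. The cells came from 2 samples of wild-type mice, called replicates 1 and 2, enriched from spleen with magnetic beads against CD11c, marked with sample tags and captured on the BD Rhapsody system, in which every captured transcript carries a unique molecular identifier (UMI). The mice were adults of both sexes on the C57BL/6J background, with no treatment named for these samples, and the number of mice per sample is not given. Replicate 1 held 3308 cells and replicate 2 held 3085 cells, and the samples shared 0 cell indices. Other mice tagged in the same run were not analysed here.

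Siglecs are receptors of the immunoglobulin family that bind sialic acids, the sugars that end many glycan chains on cell surfaces. Most carry inhibitory motifs in their cytoplasmic tail that recruit the phosphatases SHP-1 and SHP-2, encoded by Ptpn6 and Ptpn11, whereas others pair with the activating adaptor DAP12, encoded by Tyrobp. Siglec1 (CD169, sialoadhesin) has a long extracellular part without a signalling tail and marks macrophages that line the splenic marginal zone. Cd22 and Siglecg restrain the B-cell receptor, Siglece and Cd33 belong to the CD33-related members of myeloid cells, and Siglech is an antigen uptake receptor that marks plasmacytoid dendritic cells (pDCs).

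In the GENCODE annotation of GRCm38, Siglec1 lies on chromosome 2 (chr2:131069220-131086765, minus strand) and the other members lie on chromosome 7. Cd22 spans chr7:30865402-30880342 on the minus strand and is the single member that overlaps another annotated gene, the antisense gene Gm29439. The sources do not say whether the counting used strand, so reads of Cd22 and of that gene could not be told apart. Siglecg (chr7:43408204-43418358, plus strand), Cd33 (chr7:43524216-43544428, minus strand) and Siglece (chr7:43651070-43660161, minus strand) form a cluster, and Siglech stands apart at chr7:55768178-55778925 on the plus strand. For 5 of the 6 members, RefSeq promoter sequences of GRCm38.p6 were matched by symbol. Those of Siglece and Siglech are shown because these members led in different cell classes and because the bases from 250 to 11 before their start overlapped 0 annotated exons. They are the window chr7:43660172-43660411 on the minus strand for Siglece and chr7:55767934-55768173 on the plus strand for Siglech, written 5′ to 3′.
Siglece: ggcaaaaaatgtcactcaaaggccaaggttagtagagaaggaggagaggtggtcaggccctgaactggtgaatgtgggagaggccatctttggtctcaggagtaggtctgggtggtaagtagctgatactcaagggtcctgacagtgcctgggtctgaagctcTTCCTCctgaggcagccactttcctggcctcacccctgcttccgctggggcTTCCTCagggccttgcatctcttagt
Siglech: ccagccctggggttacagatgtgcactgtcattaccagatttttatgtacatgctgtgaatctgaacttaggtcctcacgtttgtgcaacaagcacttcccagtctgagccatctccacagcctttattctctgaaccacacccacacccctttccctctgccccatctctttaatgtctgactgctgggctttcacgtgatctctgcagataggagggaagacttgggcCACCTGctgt
Capitals mark GAGGAA, a core bound by PU.1-type ETS factors, and CACCTG, an E-box, each searched on both strands (TTCCTC is GAGGAA on the other strand), and the letters of the 2 motifs do not overlap in these windows. The Siglece window held 2 matches of GAGGAA and 0 of CACCTG, and the Siglech window held 0 and 1. Among all 32851 promoter windows of the same length, 22.3% held GAGGAA and 16.6% held CACCTG. A match describes letters and not a bound site.

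Cells were placed in 9 classes by UMI counts of genes outside the family, each cell taking the first class whose gate it passed. These were macrophages (at least 20 Vcam1 and 5 C1qb UMIs), mature DCs (2 Ccr7, 1 Fscn1), cDC1s (2 Clec9a, 1 Xcr1), a pDC gate (1 Ccr9, 3 Tcf4), B cells (3 Cd79a), T cells (2 Cd3e), NK cells (1 Ncr1), DCIR2 cDC2s (2 UMIs of Clec4a4, which encodes DCIR2) and CLEC10A cDC2s (2 UMIs of Clec10a and Cd209a together). The classes took up 4953 of 6393 cells, from 75 NK cells to 1507 cDC1s, and 871 cells passed several gates. Median depth ran from 5922.5 UMIs in T cells of replicate 1 to 21782.5 in cDC1s of replicate 2, which bears on shares of cells. Of 8 further markers per class, set without the gate genes, 8 were raised in both samples in macrophages, B, T and NK cells and 7 in mature DCs and cDC1s. There were 5 of 8 in each cDC2 class and 4 of 8 (Bst2, Cox6a2, Runx2 and Spib) in the pDC gate, where 99 of 141 cells also passed another gate. The latter are therefore called cells of the pDC gate. In macrophages, 4 erythroid markers summed to 2247 and 1734 UMIs per 1000000 UMIs of the class (CPM), against 5.26 to 72.8 in the other classes, and their part in the macrophage results was not tested. The macrophage gate does not select cells of the marginal zone. Its 8 raised markers include Spic, a factor of red pulp macrophages. Of its 519 cells, 31 held 10 or more UMIs of Marco, a gene of marginal zone macrophages.

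A leading class was found for 5 of the 6 members, meaning a class in which the gene was higher than in each of the other 8 (edgeR's quasi-likelihood test on UMI sums per class and sample, Benjamini-Hochberg adjustment over 12044 genes, all 8 adjusted p under 0.05). Siglec1 and Siglece led in macrophages, where 9.78% of all genes tested were called. Cd22 and Siglecg led in B cells, where the share of genes called was 1.89%, and Siglech led in the pDC gate, where it was 0.125%. Cd33 had no leading class.

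**Figure D1:**
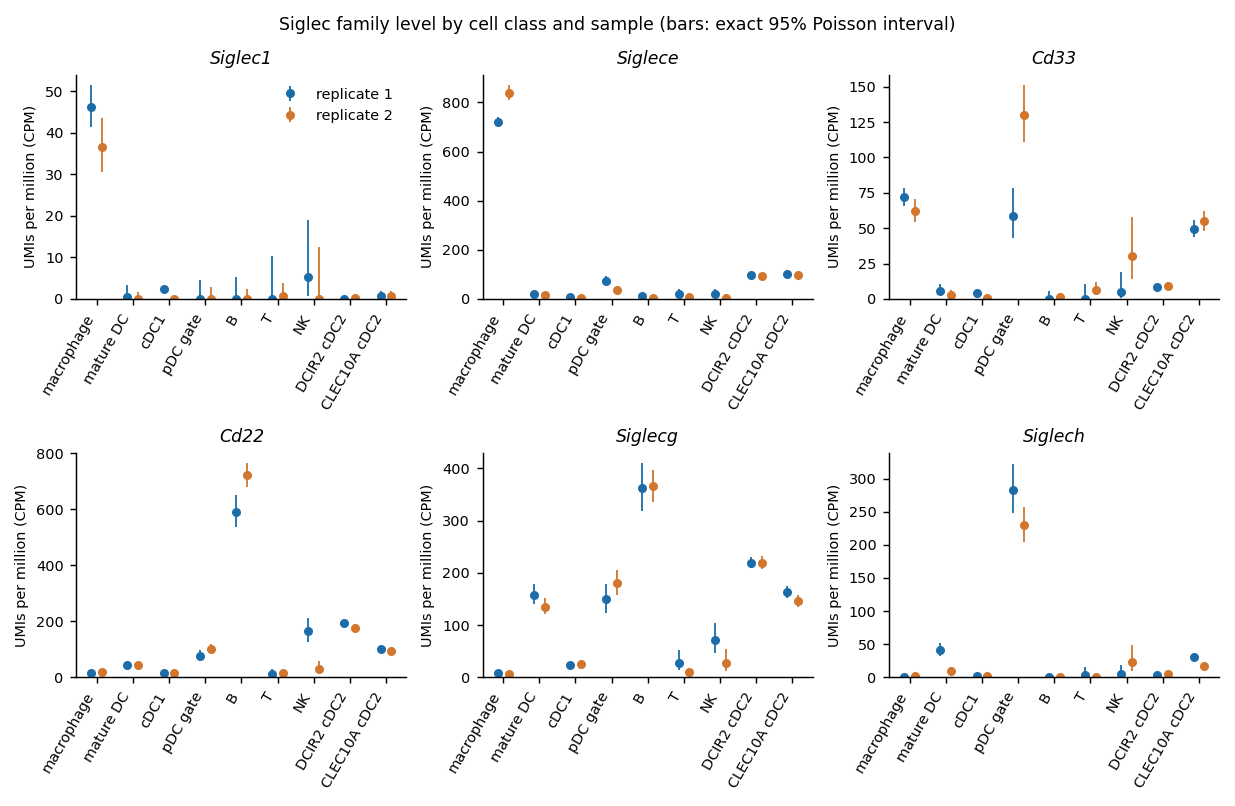
Level of each member as UMIs per 1000000 UMIs (CPM, vertical axis from 0, own scale per panel) in the 9 cell classes, with 1 point per sample (blue, replicate 1; orange, replicate 2) and bars for the exact 95% Poisson interval. Siglec1 and Siglece stood highest in macrophages, Cd22 and Siglecg in B cells and Siglech in the pDC gate, and for Cd33 macrophages, CLEC10A cDC2s and the pDC gate stood above the rest.

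Of 533 Siglec1 UMIs in all cells, 465 lay in macrophages, a class not gated for the marginal zone. The gene was measured at 46.2 CPM in macrophages of replicate 1 (335 UMIs, 95% Poisson interval 41.4 to 51.4) and at 36.6 CPM in replicate 2 (130 UMIs, 30.5 to 43.4). In the other classes the samples lay between 0 and 5.26 CPM, and the classes after macrophages overlapped. The nearest class in the fit was NK cells with 2 UMIs, from which the fitted log2 difference was 4.17 ± 1.22 (SE) and the largest of the 8 adjusted p was 0.0133 (edgeR). As a ratio of counts, macrophages stood 14.5-fold above NK cells, with a counting interval of 3.997 to 120.2. B cells held 0 Siglec1 UMIs in 270 cells, which allows up to 1.11% of cells with a UMI, and macrophages were at least 33.1-fold higher than the limit of 3 counts over both samples.

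Within macrophages Siglec1 was uneven. A UMI was found in 129 of 358 macrophages of replicate 1 (36.0%, exact binomial interval 31.1 to 41.2) and in 73 of 161 of replicate 2 (45.3%, 37.5 to 53.4). T cells, taken as the class that lacks these genes, gave 0% and 0.538%, at median depths of 5922.5 and 6395 UMIs against 19570.5 and 19416 in macrophages. Thinned to 4000 UMIs per cell, 14.3% and 13.02% of macrophages held a UMI. Of the 202 macrophages with Siglec1, 112 held 1 UMI. In all, 5 cells held 10 or more Siglec1 UMIs. Those with 48, 34, 21 and 12 Siglec1 UMIs, also carried 54, 59, 40 and 39 UMIs of Marco, a scavenger receptor of marginal zone macrophages, and the fifth, with 11, carried 0. These cells were 4 macrophages and 1 cell of another class. The latter, with 34 Siglec1 UMIs, had entered the cDC1 class with 2 Clec9a and 1 Xcr1 UMIs although it held 14 UMIs of Spic, a factor of red pulp macrophages, and 9 of Vcam1. It supplied 34 of the 38 Siglec1 UMIs of cDC1s in replicate 1. Macrophages with 10 or more Marco UMIs stood at 103.7 CPM (24 cells) and 118.8 CPM (7 cells), and those with fewer stood at 39.6 and 31.2 CPM. The gap rested on 3 cells. Without macrophages of 10 or more Siglec1 UMIs, those rich in Marco stood at 26.7 CPM (22 cells) and 32.1 CPM (6 cells), and the others at 38.2 and 31.2 CPM. The Marco threshold and this comparison were chosen after these cells were seen. Of the 202 macrophages with Siglec1, 200 also held Siglece (99.0%), close to the 94.95% of macrophages without Siglec1. The cells with 48, 34, 21, 12 and 11 Siglec1 UMIs held 0, 1, 77, 62 and 8 Siglece UMIs.

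Siglece, an inhibitory receptor of myeloid cells, was the member found in nearly every macrophage. It stood at 719.7 CPM in replicate 1 (interval 700.3 to 739.5) and 839.4 CPM in replicate 2 (809.6 to 870.1). Both cDC2 classes came next and overlapped, at 99.8 and 96.5 CPM in CLEC10A cDC2s and 98.7 and 92.0 CPM in DCIR2 cDC2s. The pDC gate followed at 72.7 and 37.7 CPM, and the other classes lay between 3.396 and 21.0 CPM. Macrophages exceeded CLEC10A cDC2s by 3.08 ± 0.20 (log2, SE), and the largest of the 8 adjusted p was 4.81e-10. A UMI was found in 347 of 358 and 154 of 161 macrophages, with a median of 13 UMIs per cell and a highest of 86. At the common depth of 4000 UMIs the shares were 86.7% and 88.9% of macrophages, 29.7% and 27.2% of DCIR2 cDC2s and 27.0% and 24.6% of CLEC10A cDC2s. In cDC1s they were 2.04% and 2.22%, within the 1.37% to 3.51% of the T-cell samples, and the levels of both classes also overlapped without cells of several gates (2.65 to 5.03 CPM in cDC1s and 2.30 to 2.87 CPM in T cells). No expression in cDC1s is read from them.

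**Figure D2:**
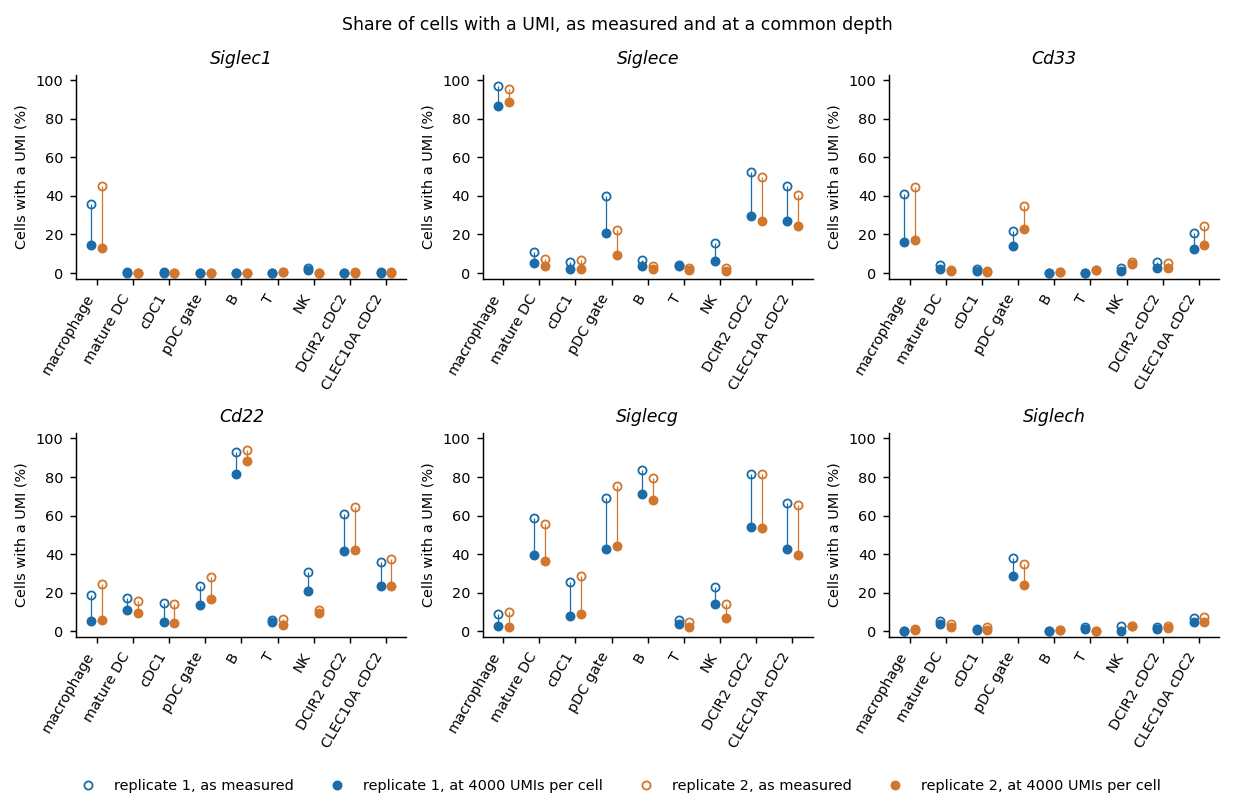
Percent of cells with at least 1 UMI of each member by class and sample, as measured (open circles) and computed for 4000 UMIs drawn from every cell (filled circles, shallower cells left out). Siglece reached over 86% of macrophages at the common depth, whereas Siglec1 reached 14.3% and 13.02% of them.

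Cd33, the receptor after which the CD33-related Siglecs are named, was shared by 3 classes. In macrophages it stood at 71.7 and 62.1 CPM, in CLEC10A cDC2s at 49.3 and 54.7 CPM and in the pDC gate at 58.9 and 129.7 CPM. Without cells of several gates, the pDC gate held 0 UMIs in 18 cells of replicate 1 and stood at 190.7 CPM in 24 cells of replicate 2, so in replicate 1 its Cd33 came entirely from cells that also passed another gate. The samples of the pDC gate overlapped those of macrophages. The gate led over 6 of the other 8 classes, but not over macrophages (log2 difference 0.30 ± 0.37, adjusted p = 0.555) or CLEC10A cDC2s (0.77 ± 0.38, adjusted p = 0.329). With replicate 1 alone the gate stood 0.55 below macrophages on the log2 scale, and with replicate 2 alone it stood 0.85 above them, so the order rests on the sample. DCIR2 cDC2s lay at 8.29 and 9.01 CPM and cDC1s at 3.89 and 0.803 CPM. A UMI was found in 41.1% and 44.7% of macrophages, 21.0% and 24.6% of CLEC10A cDC2s, 5.80% and 4.95% of DCIR2 cDC2s and 0% and 1.61% of T cells. Macrophages were the deeper class. At the common depth of 4000 UMIs the shares were 16.27% and 16.92% of macrophages and 12.45% and 14.36% of CLEC10A cDC2s. They were 13.83% and 22.75% in the pDC gate and 2.68% and 2.457% in DCIR2 cDC2s. Copies were few in most cells, and 10 of the 519 macrophages held 10 or more.

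Cd22 and Siglecg, the inhibitory co-receptors of B cells, were highest in B cells and were also found in the cDC2 classes. Cd22 stood at 591.0 CPM in B cells of replicate 1 (interval 535.4 to 650.8) and 720.3 CPM in replicate 2 (679.4 to 763.0). DCIR2 cDC2s came second at 194.5 and 177.3 CPM and lay above CLEC10A cDC2s, at 102.4 and 93.3 CPM, in both samples. The pDC gate stood at 76.5 and 99.8 CPM and mature DCs at 44.8 and 42.8 CPM. Without cells of several gates these levels were 33.1 and 55.6 CPM and 20.8 and 24.6 CPM. Macrophages, cDC1s and T cells lay between 11.2 and 17.15 CPM. B cells exceeded DCIR2 cDC2s by 1.72 ± 0.22 (log2, SE), and the largest of the 8 adjusted p was 7.49e-06 (edgeR). NK cells differed widely between samples, at 165.5 and 30.6 CPM, and 2 of the 39 NK cells of replicate 1 gave 19 and 12 of its 63 Cd22 UMIs.

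For Siglecg the order was the same at the top and the steps were smaller. B cells stood at 362.0 and 365.4 CPM and DCIR2 cDC2s at 219.4 and 219.7 CPM, a difference of 0.62 ± 0.17 (log2, SE), with 0.00803 as the largest of the 8 adjusted p. The pDC gate (149.2 and 180.0 CPM), CLEC10A cDC2s (162.8 and 145.1) and mature DCs (157.9 and 135.0) overlapped each other. cDC1s stood at 23.8 and 24.5 CPM and macrophages at 8.13 and 6.19 CPM. At the common depth, 71.0% and 68.0% of B cells and 54.0% and 53.4% of DCIR2 cDC2s held a Siglecg UMI. In cDC1s the shares were 7.99% and 8.69%, in T cells 3.56% and 2.42% and in macrophages 2.79% and 2.38%. The CPM of cDC1s and T cells overlapped (27.9 and 10.47 CPM in T cells), so no order between them is read from the shares. Without cells of several gates the levels were 18.8 to 20.1 CPM in cDC1s and 5.74 to 8.42 CPM in T cells. For Cd22 the shares at this depth were 81.7% and 88.5% in B cells, 41.9% and 42.0% in DCIR2 cDC2s, 23.7% and 23.3% in CLEC10A cDC2s, 4.64% and 4.48% in cDC1s and 4.57% and 3.44% in T cells.

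Single cells often held both genes. Of the 270 B cells, 253 held Cd22, 218 held Siglecg and 208 held both. Of the 996 DCIR2 cDC2s, 529 held both, 95 held Cd22 alone and 285 Siglecg alone. Siglecg was also frequent in cells without Cd22. In DCIR2 cDC2s it was found in 84.8% of cells with Cd22 and 76.6% of those without. In B cells these shares were 82.2% and 58.8%, the latter over 17 cells. The levels of other B-cell genes in DCIR2 cDC2s ranged widely. There Ms4a1, which encodes CD20, stood at 16.2 and 15.9 CPM against 1581 and 1482 CPM in B cells, and Pax5, a transcription factor of B cells, at 1.83 and 2.95 CPM against 738.4 and 897.4 CPM. Mef2c, another transcription factor of B cells, stood at 306.0 and 292.5 CPM in DCIR2 cDC2s against 855.7 and 1041 CPM in B cells. All 8 B-cell markers together summed to 230.8 and 208.3 CPM in DCIR2 cDC2s, mostly from Ighm, and to 410.6 and 289.7 CPM in T cells, in which Cd22 stood at 11.2 and 14.7 CPM. Whether transcripts of B cells contributed to Cd22 and Siglecg in DCIR2 cDC2s was not tested.

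Siglech was found in 257 of the 6393 cells. In the pDC gate it stood at 283.3 CPM in replicate 1 (interval 247.6 to 322.7) and 229.5 CPM in replicate 2 (203.9 to 257.4), and no other class reached 42 CPM. Mature DCs stood at 41.2 and 9.71 CPM, CLEC10A cDC2s at 31.2 and 16.8 CPM, NK cells at 5.26 and 23.8 CPM and DCIR2 cDC2s at 3.94 and 5.55 CPM. Samples of mature DCs, CLEC10A cDC2s and NK cells overlapped. The gate exceeded mature DCs by 3.23 ± 0.44 (log2, SE), and the largest of the 8 adjusted p was 0.00025. Without the cells that passed several gates, the mean level of the gate was 152.7 CPM and the smallest difference 2.51, still called (adjusted p = 0.00228).

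Most cells of the pDC gate lacked the gene. A Siglech UMI was found in 21 of 55 cells of replicate 1 (38.2%) and 30 of 86 of replicate 2 (34.9%), at median depths of 14149 and 13772.5 UMIs, against 1 of 50 and 0 of 186 T cells. The 22 cells with 5 or more UMIs supplied 453 of the 518 Siglech UMIs of the gate. In these 22 cells Bst2, which encodes the pDC antigen PDCA-1, stood at 394.6 CPM and Runx2, a transcription factor of pDCs, at 1007 CPM, against 34.4 and 155.7 CPM in the 90 cells without Siglech. Cox6a2, another pDC marker, stood at 157.2 against 0.731 CPM, but came from 3 of the 22. The other members followed Siglech in different ways. Cd33 stood at 240.6 CPM in the 22 cells and 54.1 CPM in the 90, Siglece at 6.42 and 64.3 CPM, and Siglecg at 131.5 and 171.0 CPM. Cd22 was found in 1 of the 51 cells with Siglech and in 36 of the 90 without. Clec4a4, the gate gene of DCIR2 cDC2s, moved with Cd22 and Siglece, at 87.0 CPM in the 90 cells and 20.5 and 19.2 CPM in those with 1 to 4 and 5 or more Siglech UMIs, and 38 of the 141 cells also passed the DCIR2 gate. Cd209a, a gate gene of CLEC10A cDC2s, stood at 292.3 CPM in the 90 cells. It stood at 697.3 and 436.3 CPM in those with 1 to 4 and 5 or more Siglech UMIs. Of the 141 cells, 69 also passed the CLEC10A gate. The part of cells passing either cDC2 gate in the Cd22, Siglece and Cd33 levels was not tested. These are descriptions of cells summed over both samples, with no test.

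**Figure D3:**
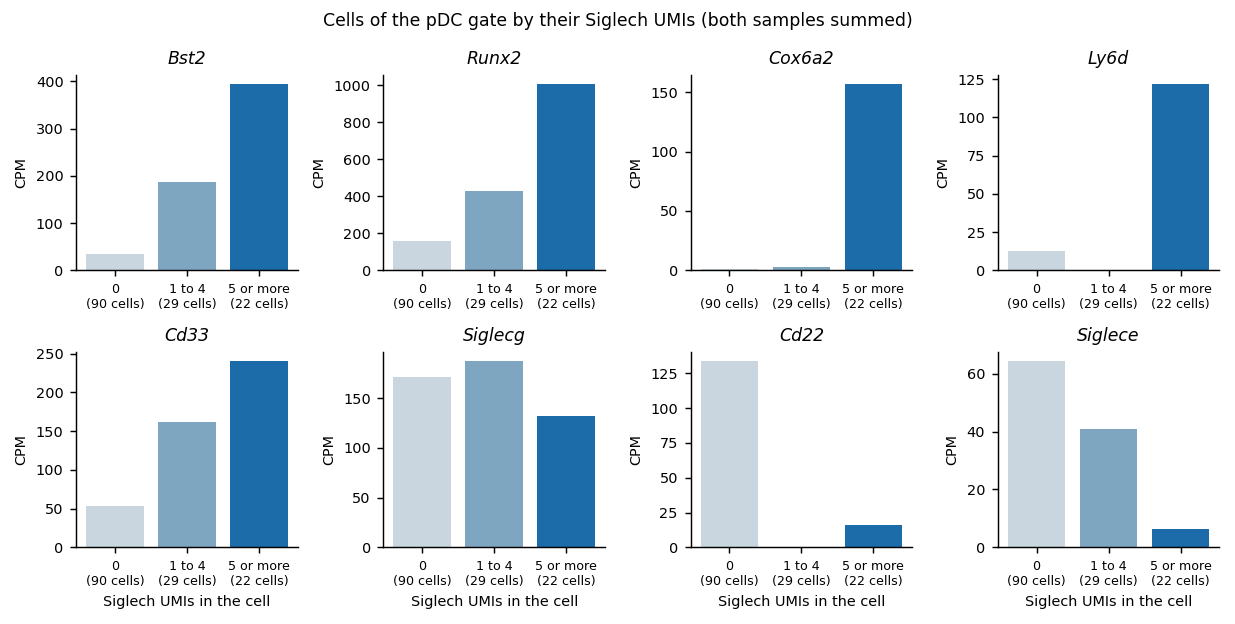
Level (CPM, from 0, own scale per panel) of 4 pDC markers and 4 other members in the 141 cells of the pDC gate, grouped by the number of Siglech UMIs in the cell (90, 29 and 22 cells, both samples summed). Of the listed pDC markers not shown, Klk1 and Spib stood highest in the 22 cells, and Tlr7 and Irf7 did not. Bst2, Runx2 and Cd33 stood higher in cells with more Siglech, at 394.6, 1007 and 240.6 CPM in the cells with 5 or more UMIs, and Cd22 and Siglece stood highest in the cells without it.

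Siglech was also found outside the gate. Of 66 cells with 5 or more UMIs, 44 lay outside it, with 13 in CLEC10A cDC2s, 19 in no class, 5 in mature DCs and 3 each in cDC1s and DCIR2 cDC2s. In CLEC10A cDC2s, 63 cells held the gene and 47 of them (74.6%) also held Cx3cr1, a chemokine receptor of transitional DCs and monocyte-related cells, against 305 of the 812 without Siglech (37.6%), at median depths of 10370 and 10611 UMIs. In the pDC gate these shares were 72.5% and 41.1%. The 5 mature DCs with 5 or more Siglech UMIs carried Tcf4, the pDC regulator, at 819.0 CPM and Runx2 at 535.5 CPM, against 116.8 and 266.8 CPM in the mature DCs without Siglech. Over all 15 mature DCs with Siglech, Tcf4 stood at 602.1 CPM, and Runx2 at 274.1 CPM was close to its level without Siglech. Of the 334 mature DCs, 13 also passed the pDC gate.

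cDC1s held less of 4 members than DCIR2 cDC2s. Siglece was lower by 3.76 ± 0.23 (log2, SE, adjusted p = 4.16e-10), Cd22 by 3.53 ± 0.25 (2.30e-09), Siglecg by 3.02 ± 0.18 (2.63e-10) and Cd33 by 1.69 ± 0.49 (0.0121), each lower in both samples. The Cd33 difference was -0.86 with replicate 1 alone, where 1 cDC1 gave 34 of the 65 Cd33 UMIs of the class, and -2.75 with replicate 2 alone. Siglech (log2 difference -1.28 ± 0.59, adjusted p = 0.111) and Siglec1 (2.85 ± 1.32, adjusted p = 0.114) did not pass, and the latter rests on the cell named above. Lower calls made up 16.5% of all genes tested in this comparison and higher calls 16.9%. Siglech passed when cells of several gates were left out (-1.84, adjusted p = 0.00684).

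**Figure D4:**
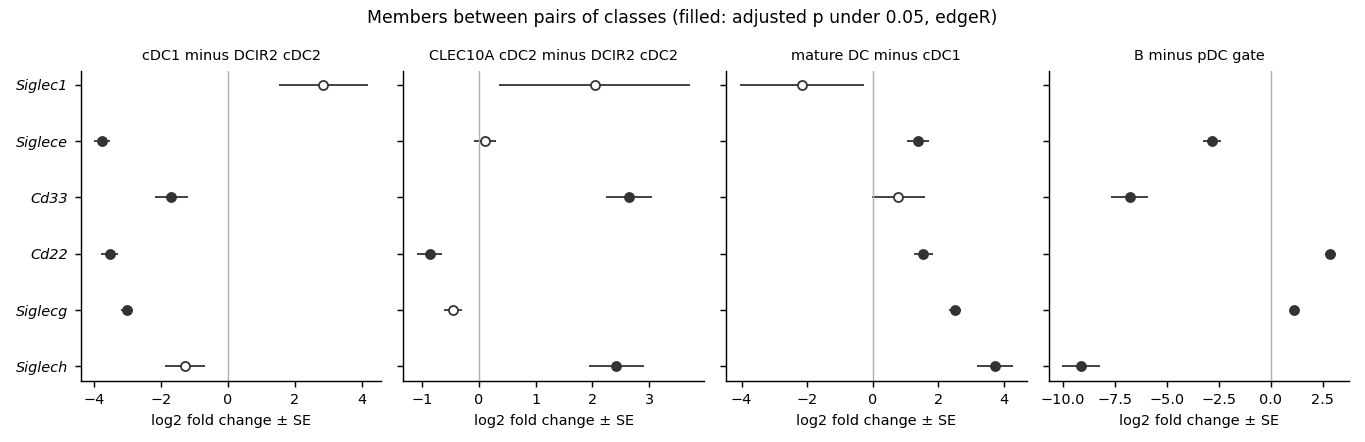
Log2 fold change of each member (edgeR, bars: SE) in 4 comparisons of classes, with filled circles for an adjusted p under 0.05 and open circles for the rest. Siglec1 is left out of the comparison of B cells with the pDC gate, where both classes held 0 UMIs. Siglece, Cd33, Cd22 and Siglecg lay below 0 in cDC1s against DCIR2 cDC2s, and Cd33 and Siglech lay above 0 in CLEC10A against DCIR2 cDC2s.

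The cDC2 classes differed in 3 members. CLEC10A cDC2s held more Cd33 than DCIR2 cDC2s by 2.64 ± 0.41 (log2, SE, adjusted p = 0.000597) and more Siglech by 2.42 ± 0.49 (adjusted p = 0.00508, 1.59 with replicate 2 alone), and less Cd22 by 0.87 ± 0.22 (adjusted p = 0.0286). Across all genes tested, 3.79% were higher and 1.49% were lower in CLEC10A cDC2s. Siglece did not pass (log2 difference 0.10 ± 0.20, adjusted p = 0.89), and neither did Siglec1 at 9 UMIs in both classes together (2.04 ± 1.68, adjusted p = 0.648). For 2 members the call depended on the fit. Siglecg missed the threshold (log2 difference -0.45 ± 0.16, adjusted p = 0.128) but passed with the sample as a block (adjusted p = 0.0366), and the Cd22 call was lost in DESeq2's Wald test (adjusted p = 0.103). The classes are not separate by gate, since 355 of the 996 DCIR2 cDC2s also passed the CLEC10A gate.

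Mature DCs, which have turned on Ccr7 and migrate to the T-cell zone, held more of 4 members than cDC1s. Siglech was higher by 3.72 ± 0.56 (log2, SE, adjusted p = 2.96e-05), Siglecg by 2.52 ± 0.18 (4.15e-09), Cd22 by 1.53 ± 0.29 (0.000311) and Siglece by 1.38 ± 0.33 (0.00224). Cd33 (0.78 ± 0.80, adjusted p = 0.464) and Siglec1 (-2.17 ± 1.89, adjusted p = 0.385) did not pass. In this comparison 20.3% of genes were higher and 22.2% lower. The Siglech difference came from 15 of 334 mature DCs, and 70 of the 92 UMIs lay in replicate 1, with 48 in 1 cell. It was 4.48 with replicate 1 alone and 1.97 with replicate 2 alone. The Siglecg level, in contrast, came from 190 mature DCs, which made up 58.5% of the mature DCs of replicate 1 and 55.6% of those of replicate 2. Siglece in mature DCs had a mean of 17.5 CPM, and of 9.24 CPM without cells of several gates. Of the 334 mature DCs, 42 also passed the DCIR2 cDC2 gate and 21 the cDC1 gate. Without cells of several gates, the 4 differences were still called (edgeR). They were 1.08 for Cd22 (adjusted p = 0.0215), 1.26 for Siglece (0.016), 2.81 for Siglecg (5.55e-11) and 3.155 for Siglech (9.48e-05). A change with maturation was not tested.

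B cells and the pDC gate, the classes in which 3 members stood highest by test, differed in all 5 members that were detected in them. B cells held more Cd22 by 2.85 ± 0.27 (log2, SE, adjusted p = 2.13e-07) and more Siglecg by 1.11 ± 0.19 (adjusted p = 0.000175), and less Siglece by 2.84 ± 0.44 (adjusted p = 7.95e-05). With 1 Siglech UMI in 270 B cells, the gate stood 578-fold higher, with a counting interval of 103.2 to 22850. With 2 Cd33 UMIs in B cells, it stood 118-fold higher (32.3 to 982.1). Both were called (adjusted p = 4.28e-07 and 1.33e-05). Of all genes tested, 10.8% were higher and 15.7% lower in B cells.

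The signalling partners of Siglecs were measured in all classes. Ptpn6, which encodes the phosphatase recruited by inhibitory Siglecs, stood at 654.3 and 658.4 CPM in DCIR2 cDC2s and at 185.9 and 189.3 CPM in cDC1s, lower there by 1.64 ± 0.11 (log2, SE, adjusted p = 1.95e-09). Tyrobp, the adaptor of Siglech, stood at 779.7 and 705.0 CPM in the pDC gate and 94.5 and 64.0 CPM in B cells. Its level was higher than in the gate in NK cells (1387 and 1413 CPM) and macrophages (1301 and 1310). The same held for CLEC10A cDC2s (1022 and 1041 CPM) and DCIR2 cDC2s (808.8 and 854.4). Of the 14 signalling genes, 4 were higher and 5 lower in cDC1s than in DCIR2 cDC2s, with a median log2 difference of 0.066 beside 0 over all genes tested, of which 16.9% were higher and 16.5% lower. In mature DCs against cDC1s 4 were higher and 6 lower (median -0.20 beside -0.069), where 20.3% and 22.2% of all genes were. In CLEC10A against DCIR2 cDC2s, where 3.79% and 1.49% of all genes were called, 2 were higher and 0 lower (median 0.11 beside 0), namely Blnk, an adaptor of B-cell receptor signalling, and Socs3, a suppressor of cytokine signalling, at levels from 1.41 to 6.69 CPM and from 2.60 to 13.01 CPM in these classes. In B cells against the pDC gate 5 were higher and 2 lower (median 0.31 beside -0.012), where 10.8% and 15.7% of all genes were. The kinases Blk, Btk and Syk, the adaptor Blnk and the phospholipase Plcg2 led in B cells over every other class, while the kinase Lyn led in macrophages. Inpp5d, which encodes the inositol phosphatase SHIP1, led in cDC1s at 515.4 and 479.9 CPM, where 3.27% of all genes were called.

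Genes that make and attach sialic acids, the ligands of Siglecs, included some that were low in cDC1s. St8sia1 and St8sia6, which encode alpha-2,8-sialyltransferases, stood at 9.51 and 6.61 CPM and at 10.3 and 10.9 CPM in cDC1s. In DCIR2 cDC2s they stood at 141.4 and 124.8 CPM and at 283.0 and 247.3 CPM. Low levels were not confined to cDC1s. Macrophages held St8sia1 at 3.998 and 2.25 CPM and St8sia6 at 11.44 and 23.62 CPM, and B cells held St8sia1 at 15.74 and 1.865 CPM. St8sia4 stood at 318.1 and 299.1 CPM in cDC1s and at 227.8 and 209.7 CPM in DCIR2 cDC2s. Against DCIR2 cDC2s, cDC1s were lower by 3.87 ± 0.26 for St8sia1 (log2, SE, adjusted p = 1.79e-09) and by 4.48 ± 0.26 for St8sia6 (2.85e-10). St3gal5, which encodes the GM3 ganglioside synthase, went the other way from St8sia1 and St8sia6 and led in cDC1s at 203.3 and 199.2 CPM. Of the 19 genes tested from the list of 20, 2 were higher and 5 lower in cDC1s than in DCIR2 cDC2s (median log2 difference -0.13 beside 0 over all genes), against 16.9% and 16.5% of all genes, so the higher calls did not exceed the background. In mature DCs against cDC1s, 8 were higher and 2 lower (0.26 beside -0.069), against 20.3% and 22.2% of all genes. St8sia1 and St3gal2, an alpha-2,3-sialyltransferase gene, led in mature DCs, where 4.04% of genes were called. CLEC10A cDC2s were higher than DCIR2 cDC2s for Cmah and St3gal1 and lower for 0 of the 19 (median -0.042 beside 0), against 3.79% and 1.49% of all genes. Cmah was low in both classes, at 7.62 and 3.59 CPM against 1.97 and 0.520 CPM. St3gal1 stood at 154.5 and 152.3 CPM against 107.2 and 105.4 CPM.

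Other genes of this list were followed in B cells. Cmah, which encodes the enzyme that turns N-acetyl- into N-glycolylneuraminic acid, stood at 363.5 and 405.2 CPM in B cells and 349.2 and 334.4 CPM in T cells, and at 0.520 to 53.4 CPM in macrophages and the DC classes. St6gal1, which makes the alpha-2,6-linked sialic acids that Cd22 binds, stood at 217.5 and 271.6 CPM in B cells and 80.2 and 88.8 CPM in the pDC gate, higher by 1.52 ± 0.17 (log2, SE, adjusted p = 2.07e-06). Against the pDC gate, 4 of the 19 genes were higher and 6 lower in B cells (median 0.065 beside -0.012), against 10.8% and 15.7% of all genes. Neu1, the lysosomal sialidase gene, led in macrophages at 88.2 and 88.6 CPM. Of the 4 sialidase and esterase genes tested from the list of 6, only Neu1 passed in any of the 4 comparisons. It was lower in cDC1s than in DCIR2 cDC2s by 0.52 ± 0.19 (adjusted p = 0.0421), higher in mature DCs than in cDC1s by 0.71 ± 0.24 (0.0206) and higher in B cells than in the pDC gate by 0.92 ± 0.32 (0.0393). With the sample as a block the first and the last were lost (adjusted p = 0.0568 and 0.0539).

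Among partners and ligands of Siglecs, 9 of the 10 listed genes were tested. Cd24a, which encodes a glycoprotein bound by Siglecg, stood at 646.8 and 678.1 CPM in B cells and 366.9 and 379.7 CPM in cDC1s, and at 19.5 and 22.0 CPM in DCIR2 cDC2s, so cDC1s were higher by 4.34 ± 0.23 (log2, SE, adjusted p = 7.96e-11). The B-cell genes Cr2 and Cd79b led in B cells, and Mrc1 (mannose receptor) and Cd44 (hyaluronan receptor) led in macrophages. Mrc1 stood at 1534 and 1497 CPM there and at 0 to 18.8 CPM in the other classes. The list had 3 higher and 4 lower genes in cDC1s against DCIR2 cDC2s, 3 and 0 in CLEC10A against DCIR2 cDC2s, 4 and 2 in mature DCs against cDC1s and 4 and 3 in B cells against the pDC gate. In the same order, the shares of all genes were 16.9% and 16.5%, 3.79% and 1.49%, 20.3% and 22.2%, and 10.8% and 15.7%. The medians were 0.63, 0.48, 0.51 and 2.24 on the log2 scale, beside 0, 0, -0.069 and -0.012 over all genes tested.

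The patterns of the members over the 18 sums were compared with those of all genes at 20 CPM or more in both samples of a class, as Pearson's r of log2(CPM + 1). The r values describe 9 classes from the same 2 samples and carry no test. Siglec1 was most like Cmbl (r = 0.964), Scamp5 (0.961) and Adipor1 (0.960), and Siglece most like Cd300ld (0.958), Clec4a2 (0.947) and Slc12a2 (0.938). Clec4a2, a C-type lectin receptor gene, stood at 295.7 and 331.6 CPM in macrophages and between 119.5 and 134.5 CPM in the cDC2 classes. For Cd33 the nearest genes were Picalm (0.910), Cx3cr1 (0.909) and Cd200r1 (0.886). For Siglecg they were H2-DMb2 (0.959), Gm15987 (0.944) and Ift140 (0.939), and for Cd22 they were Mef2c (0.880), Rb1 (0.878) and Ep300 (0.865). Mef2c, a transcription factor of B cells, stood at 855.7 and 1041 CPM in B cells and at 306.0 and 292.5 CPM in DCIR2 cDC2s. Siglech was nearest to Grm8 (0.896), Pdzd4 (0.894) and Klra17 (0.872). Between members, r was highest for Cd22 with Siglecg (0.862), followed by Siglec1 with Siglece (0.668) and Siglece with Cd33 (0.634), and lowest for Siglec1 with Siglecg (-0.646).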

How the data were processed

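Single-cell RNA sequencing covered splenic CD11c+ cells of 2 wild-type samples. The authors deposited UMI counts per cell and gene, without normalization, made with the BD Rhapsody WTA Analysis Pipeline version 1.12.1 on GRCm38 with GENCODE vM19, counting intronic reads and merging UMIs that differed by errors. Intronic counting raises genes with long introns, so levels of different genes were not ranked. The submitters' processing notes also name R 4.2.3 and Seurat 4.3.0.1. Replicate 1 held 46953398 UMIs and replicate 2 held 43137746, with medians of 11869.5 and 11241 UMIs per cell.

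All cells of the tables were used. The cell filters of the methods (at least 200 genes, mean ± 3 median absolute deviations), an alternative, left 5653 of 6393 cells and removed 4 of the 5 cells with the most Siglec1. No doublet caller was run, and leaving out cells of several gates was an alternative. Gates on UMI counts favour deep cells, and the CD11c enrichment sets which cells are present, so class sizes were not compared.

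UMIs were summed per class and sample into 18 sums and tested with edgeR 4.0.16 in R 4.3.3 (filterByExpr, TMM, glmQLFit and glmQLFTest with class as the single term, Benjamini-Hochberg adjustment over all genes, threshold 0.05, SE as the log2 fold change over the square root of F). Nothing in the sources says that the samples are separate animals, so p-values measure the spread between these samples, which may be technical. Replicates of a class differed beyond sampling noise (chi-square per degree of freedom 2.82 to 6.05). All classes of a replicate come from the same sample, which pairs the sums. Over 36 pairs of classes the correlation of deviations from the class means ran from -0.0548 to 0.232, with 15 above 0.1, and alternatives were sample blocks, DESeq2 size factors, DESeq2 1.42.0 and no gene filter. On simulated sums with 200 genes raised 4-fold in 1 class, the rule over 8 contrasts recovered 142 in B cells, 144 in macrophages and 123 in the pDC gate. At 2-fold it recovered 43, 36 and 35. Unchanged genes were simulated at equal levels in all classes, with independent sums. The 0 false calls seen there therefore do not measure false calls in the real sums. CPM are UMIs per 1000000 UMIs of a class. Shares at a common depth are expected shares when each cell gives 4000 UMIs without replacement. Poisson and binomial intervals (95%) and limits of 3 counts cover counting error only. A marker was raised when log2(CPM + 10) in the class was over 1 above the remaining cells in both samples. Python 3.11.15, numpy 2.4.6, pandas 2.3.3, scipy 1.17.1 and matplotlib 3.10.9 were used.

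The members, gates and gene lists were chosen with earlier results of these data known. Genes named are the 6 members, other Siglec genes and Mag, the members of 4 lists (signalling, sialic acid synthesis and transfer, sialidases and esterases, partners and ligands), the 3 genes most like each member and the markers of cells rich in Siglec1. Promoter sequences are from RefSeq (GRCm38.p6).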

Additional observations from a re-analysis of the deposited data

Results flagged for a closer look

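Genes and cells outside the comparisons above held UMIs beyond the 3 counts that a level of 0 would allow. Mag, which encodes myelin-associated glycoprotein, a Siglec of myelin-forming glia, lies next to Cd22 on the same strand (chr7:30899176-30914873, 18833 bases away). It had 317 UMIs in macrophages, in 116 of 358 cells of replicate 1 and 66 of 161 of replicate 2, which is 28.0 and 32.1 CPM, and 48 UMIs in all other cells, of which NK cells held 22. In the edgeR test macrophages were above 7 of the other 8 classes for Mag but not above NK cells (adjusted p = 0.758). Of the 182 macrophages with Mag, 49 also held Cd22 (26.9%), against 16.9% of those without Mag. Whether reads were shared between the neighbouring genes was not tested.

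Siglecf, a receptor of eosinophils and alveolar macrophages, had 53 UMIs in 48 cells of the tables, of which CLEC10A cDC2s held 13 and cells of no class 23. Siglec15 had 5 UMIs in 5 cells.

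The 1440 cells of no class held all members, with 16 UMIs of Siglec1, 280 of Siglech, 1063 of Siglece, 2223 of Siglecg, 1651 of Cd22 and 359 of Cd33. In replicates 1 and 2, this put Siglecg at 175.8 and 170.1 CPM and Cd22 at 127.8 and 129.3 CPM, both between the levels of CLEC10A and DCIR2 cDC2s. Siglece stood at 82.5 and 83.0 CPM. With 2 samples in a group, no test for a sample that stands apart was possible.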

How the results depend on the processing

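The 5 leading classes kept their call and direction under each of the 6 alternative fits or cell sets. Without replicate 1 or 2, the log2 difference from the next class ran from 3.42 to 5.04 for Siglec1, 2.99 to 3.16 for Siglece, 2.60 to 3.39 for Siglech, 0.61 to 0.71 for Siglecg and 1.59 to 1.90 for Cd22, with no test. For Cd33, whose difference between the pDC gate and macrophages was never called, it ran from -0.55 to 0.85, and the cause of the change of direction was not tested. Levels in the leading class without a replicate are the values of the other sample given above. The mean Siglech level in the pDC gate was 218.1 CPM with the cell filters of the methods and 152.7 CPM without cells of several gates, against 256.4 CPM. Siglecg in B cells was 368.9 and 375 CPM, against 363.7 CPM. Without a gene filter, 1059 genes were called between CLEC10A and DCIR2 cDC2s, against 636, with 24952 genes tested instead of 12044. With DESeq2 size factors the median log2 difference of all genes between mature DCs and cDC1s moved from -0.069 to 0.046. By direction, the 180 lower calls between CLEC10A and DCIR2 cDC2s became 456 without a gene filter, 309 with the block and 318 without cells of several gates. The genes leading in the pDC gate rose from 15 to 33 without a gene filter, and those leading in DCIR2 cDC2s from 11 to 34, and to 20 with the block. The remaining counts stayed within 1.5 times, and no count without a replicate was possible, because no residual degrees of freedom remain. The block changed the call of Siglecg in CLEC10A against DCIR2 cDC2s and of no other member. It also moved list genes near the threshold, among them Neu1 as given above, Cr2, lost in mature DCs against cDC1s (adjusted p = 0.0516), and St6gal1, leading in B cells (0.0202). Several list counts moved with the block. For sialic acid synthesis and transfer in cDC1s against DCIR2 cDC2s, 2 higher and 5 lower became 3 and 4. For signalling in mature DCs against cDC1s, 6 lower became 7. Siglecg passed between the cDC2 classes also in DESeq2 (0.0363), without a gene filter (0.0406) and without cells of several gates (0.0423). Siglec1 and Siglech passed in cDC1s against DCIR2 cDC2s without a gene filter (0.00376 and 0.0035). At a common depth of 2000 UMIs, 7.38% of macrophages held Siglec1 and 72.0% Siglece. Depth limits Siglec1, Siglech and Cd33 in NK, T and B cells, where few cells and 0 to 9 UMIs per sample were measured.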
